A study of Mus with 6 samples.

Results

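The RNAs described here carry RIKEN clone names that open with a capital letter from A to G and 3 digits and end in Rik, such as G630016G05Rik. All names of this form were taken from the authors' deposited table by gene name, which gave 202 members of 2282 names. The initial letter was A for 79 members, B for 24, C for 32, D for 30, E for 24, F for 8 and G for 5. RNA was measured by sequencing in the right substantia nigra pars compacta, a midbrain nucleus whose dopaminergic neurons degenerate in Parkinson's disease. All mice, the controls included, overexpressed human α-synuclein carrying A53T. The model group (3 samples) received 0.9% saline and the AVE0991 group (3 samples) received AVE0991 at 10 mg/kg, both once a day by intraperitoneal injection for 30 days. As background, AVE0991 activates Mas, through which the peptide angiotensin-(1-7) acts, without being a peptide itself. The labels do not give the promoter of the transgene, the age of the mice, or whether a sample holds 1 animal or a pool.

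A RIKEN clone name records the plate and well of a full-length complementary DNA clone made in a large mouse transcript survey, and the letter-prefixed names come from its later libraries. Such a name stays with a gene for as long as no function gives it another. Most of these genes make long non-coding RNAs (lncRNAs), transcripts without a long reading frame, many of them spliced and restricted to few cell types. Some lncRNAs act on genes beside them, and some are the precursors from which microRNAs (miRNAs) are cut. The place of a clone RNA beside a protein-coding gene is therefore the main thing known about it, and the members are ordered below by their neighbours in RefSeq (GRCm38.p6). Of the 202 members, 201 had a RefSeq symbol: 194 are listed there as lncRNA, 4 as transcribed pseudogenes and 3 as protein-coding.

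The deposited table gives a mean per group and not per sample. The whole counts of the single libraries were recovered from the mean, the test statistic and its degrees of freedom, with exactly 1 solution for each of the 201 members that had any count. The recovered libraries are written model-a, model-b, model-c and AVE0991-a, AVE0991-b, AVE0991-c. The letters run from the largest to the smallest library factor in a group and are not the replicate numbers of the labels. Values listed by group follow the letters. A normalized count is a recovered count divided by its library's factor, so that the group means are those the authors deposited. Per library, members held 154969 to 168064 recovered counts with AVE0991, below the 177611 to 188048 of the model group. The 2235 names with exactly 1 solution together were lower as well, at 1518856 to 1729475 per AVE0991 library against 1949167 to 2099520 per model library. Names with very high counts or several solutions are not in these sums. These raw sums are not scaled for library depth, so they do not compare member levels. In the separate count table, by identifier, AVE0991 libraries held 37036986 to 42379095 counts. Model libraries held 43991913 to 52029003 there, so depth differed between the groups without overlap. The library model-c stood apart: among the 300 named RNAs that changed, it was the model library nearest to the AVE0991 mean in 80.7%, and its share among all 1863 tested was 51.9%. The named table is the authors' table of lncRNA genes. None of 20 marker genes for dopaminergic and GABAergic neurons, astrocytes, oligodendrocytes, microglia and endothelium is in it. The counts by identifier were used for depth only, so the tissue was not checked against these markers. In bulk tissue, fewer cells of a type and less RNA per cell cannot be told apart. Whether each sample came from its own animal is not in the labels, so a p-value here compares a difference with the spread between samples, and that spread may be technical.

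Members were present at widely different levels in the substantia nigra. Of the 202, 179 had counts in all 6 libraries, 22 in some of them and 1, E330016L19Rik, in none. The mean over both groups ran from 1.19 to 18392 normalized counts with a median of 249, and 40 members had at least 1000. The median over all 2282 names was 136. The 6 members with the most counts held 33.7% of all member counts. These levels are not divided by transcript length, which no source used here gives, so they do not rank members by the number of molecules.

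The member with the highest count was A330023F24Rik, which in RefSeq holds the miRNA genes Mir29b-2 and Mir29c. It had 18627, 17470.2 and 18148 in model-a, model-b and model-c and 17012, 18824 and 20268 in AVE0991-a, AVE0991-b and AVE0991-c, and the groups overlapped. Its log2 fold change (AVE0991 over model, here and throughout) was 0.10 ± 0.12 (SE), with an adjusted p of 0.599 (edgeR quasi-likelihood test, Benjamini-Hochberg over all names tested). B230303A05Rik, a transcribed pseudogene whose RefSeq gene overlaps Inhba, a gene of activin and inhibin subunits, came next and is described with the RNAs that rose. C130071C03Rik holds Mir9-2, a source of the neural miRNA miR-9, and lies beside Mef2c, a transcription factor of neurons and muscle. It had 10919.5, 8615 and 8955 in the model libraries and 8080.1, 8149 and 6828 with AVE0991. The AVE0991 libraries were all lower, but the log2 fold change of -0.26 ± 0.14 (SE) did not pass (adjusted p = 0.254, edgeR). A830082K12Rik overlaps Nr2f1, an orphan nuclear receptor of cortical patterning. It had 5709, 4562 and 7817 in the model libraries and 7515, 7843 and 8039 with AVE0991, with 1 model library above the lowest AVE0991 library. Its adjusted p was 0.176, and 0.0106 without model-c (edgeR), where the log2 fold change was 0.68 against 0.42. With any other library left out the adjusted p was 0.244 to 0.457 (edgeR). A530010L16Rik, between Cbfa2t3 and Acsf3, had 6853, 7448 and 5787 in the model libraries and 4134, 5276 and 5703 with AVE0991, and its adjusted p was 0.196 (edgeR). A830082N09Rik, between Zup1 and Rwdd1, was the most uneven of these. Its model libraries held 6628, 7395 and 1794 normalized counts, so that model-c was far below the other model libraries and below every AVE0991 library (7381, 5991 and 6011). It did not pass, with a log2 fold change of 0.34 ± 0.42 (SE) and an adjusted p of 0.630 (edgeR).

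The question of the comparison is which of these RNAs differ with AVE0991 treatment on this transgenic background. Of the 202 members, 185 passed a filter on low counts, and 35 of these changed: 20 were higher and 15 were lower with AVE0991 (edgeR quasi-likelihood test, adjusted p under 0.05). That is 18.9% of the members tested, beside 16.1% of all 1863 named RNAs tested. Over all names 7.78% were higher and 8.32% lower. Of the 35, 13 rose and 8 fell by at least 2-fold, a size that 9.98% of all names passed. At an unadjusted p under 0.05 there were 62 members, against 30.9% of all names. In all 35 the libraries of the groups did not overlap, as in 71 of the 185 members (38.4%) and 39% of all names tested. The members' counts lie near these shares over all names.

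**Figure D1:**
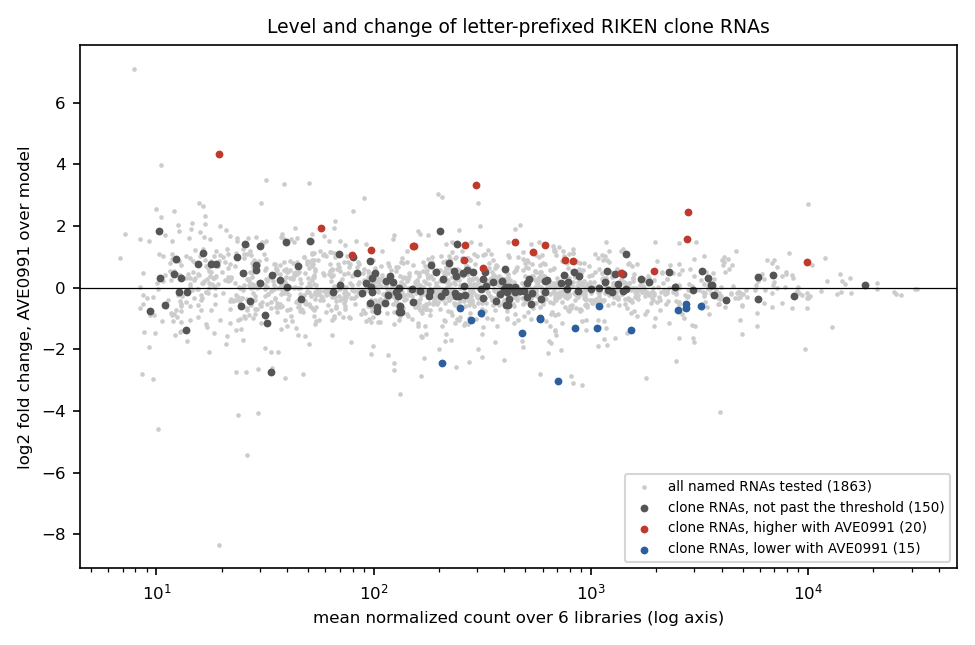
Log2 fold change (AVE0991 over model) against the mean normalized count over the 6 libraries (log axis), 1 point per named RNA. The 35 coloured members past the threshold, 20 higher and 15 lower, lie among the grey points of all 1863 names at every level, and the changed member of lowest count is D030025E07Rik at the top.

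The median log2 fold change of the members was 0.08, with quartiles of -0.26 and 0.52, and 103 of 185 were above 0. Over all names the median was -0.02. RIKEN clones whose names start with a digit, of which 652 were tested, had a median of 0.10 with 55 higher and 44 lower. The other 1026 names had a median of -0.09 with 70 higher and 96 lower. With the authors' own library factors in place of TMM scaling, 15 members were higher and 16 lower, and the median of all names was -0.07. With DESeq2 size factors 20 were higher and 13 lower, and with library totals 21 and 13. The medians of all names were then 0.004 and 0.01. The authors' deposited table, which tests each name alone with unequal variances, has an unadjusted p under 0.05 for 39 members, 20 higher and 19 lower, beside 18.8% of all 2247 names with a value. Of the 35 members called by edgeR, 26 are among these 39.

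Homeobox genes encode transcription factors, many but not all of which set regional identity in the embryo. Clone RNAs beside homeobox genes were picked by the symbols of their RefSeq neighbours, with results of these data known. Of 10 such members 9 were tested: 3 rose, 1 fell and 5 did not pass, beside 16.1% of all names changed. G630016G05Rik overlaps Meis2, a homeobox gene of forebrain and limb. It had 1043, 414 and 1233 in model-a, model-b and model-c and 3890.4, 4608 and 5689 in AVE0991-a, AVE0991-b and AVE0991-c. The lowest AVE0991 library was above 3 times the highest model library. The log2 fold change was 2.45 ± 0.38 (SE), or 5.47-fold, with an adjusted p of 0.00478, and the p ran from 0.00237 to 0.0288 with any library left out (edgeR). The authors' deposited table gives a statistic of 6.63 on 2.85 degrees of freedom (unadjusted p = 0.00817). C230014O12Rik flanks Pbx3, whose product pairs with Meis and Hox proteins on DNA. It rose from 277, 323 and 423 to 514, 655 and 1049 normalized counts, and the log2 fold change was 1.18 ± 0.30 (SE). The groups did not overlap, and the adjusted p of 0.0303 was lost without AVE0991-b, AVE0991-c, model-a or model-b (edgeR, 0.0625 to 0.121). For C230014O12Rik the authors' deposited statistic was 2.40 on 2.29 degrees of freedom (unadjusted p = 0.122).

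E130119H09Rik lies between Msx2, a homeobox gene of skull and limb, and Drd1, the gene of the D1 dopamine receptor. Its counts were low, 23.8, 10.7 and 38.8 in the model libraries and 103, 54.1 and 112 with AVE0991, and the groups did not overlap. In log2 fold change this was 1.92 ± 0.51 (SE), with an adjusted p of 0.0379 that was lost without AVE0991-a, AVE0991-c, model-a or model-b (edgeR, 0.0996 to 0.122). By the authors' test its statistic was 3.31 on 2.78 degrees of freedom (unadjusted p = 0.0506). D930007P13Rik, between Hoxc4 of the HoxC cluster and the DNA repair gene Smug1, went the other way. It had 409, 402 and 244 in the model libraries and 74.6, 56.1 and 56.5 with AVE0991, so that every AVE0991 library was below 80 and every model library above 200. Fitted over all names, the log2 fold change was -2.44 ± 0.27 (SE), with an adjusted p of 0.00114, which ran from 0.000344 to 0.0115 with any library left out (edgeR). The authors' statistic in their deposited table was -5.34 on 2.05 degrees of freedom (unadjusted p = 0.0316).

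**Figure D2:**
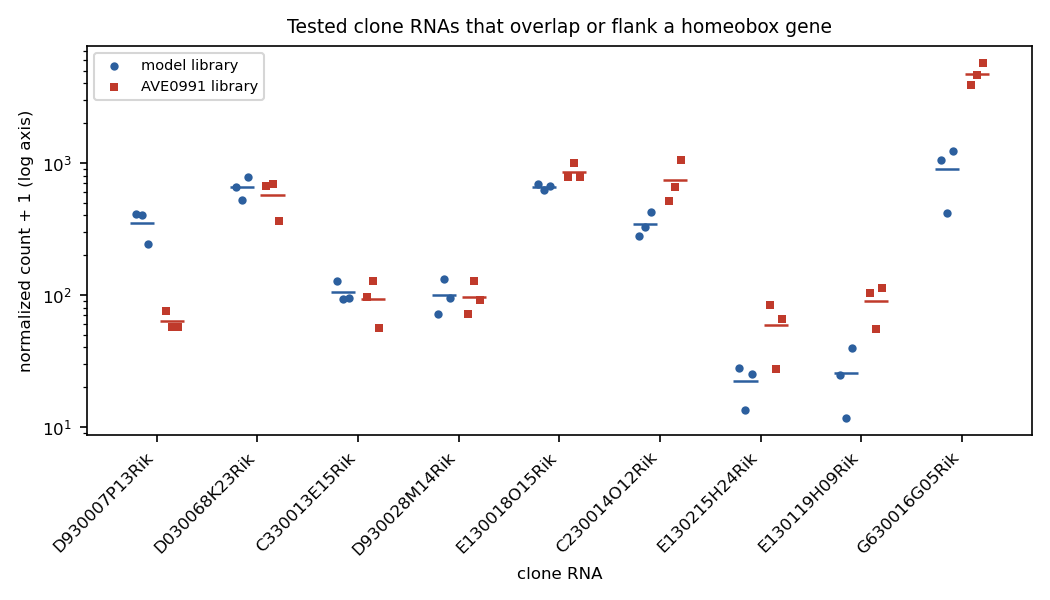
Normalized count plus 1 (log axis) of the 9 tested clone RNAs of this group, which overlap or flank a homeobox gene, with 1 point per library and a bar at the group mean. D930007P13Rik at the left is lower in all 3 AVE0991 libraries, and the groups of C230014O12Rik, E130119H09Rik and G630016G05Rik do not overlap either, with AVE0991 higher.

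The other 5 tested members beside homeobox genes did not pass. E130018O15Rik, beside Hmx1, had 691, 619 and 667 in the model libraries and 774, 992 and 774 with AVE0991. All AVE0991 libraries were higher, with a log2 fold change of 0.41 ± 0.17 (SE) and an adjusted p of 0.129 (edgeR). E130215H24Rik, beside Vsx1, had 21.2 ± 7.70 in the model group and 57.7 ± 28.6 with AVE0991 (SD, n = 3 each), and the libraries of the groups overlapped, with 1.49 ± 0.54 (SE) as the log2 fold change and an adjusted p of 0.0965 (edgeR). C330013E15Rik beside Pou6f1, D030068K23Rik beside Zfhx3 and D930028M14Rik, which overlaps Pou2f2, had log2 fold changes of -0.14, -0.14 and 0.02. C330011F03Rik, beside Satb1, had too few counts to be tested.

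Among other RNAs that rose, A730043L09Rik changed the most of those with more than a few counts in the model group. It lies between Glce, an enzyme of heparan sulfate synthesis, and Spesp1, a sperm protein gene. It had 50.9, 29.5 and 86.9 in model-a, model-b and model-c and 315, 494 and 808 in AVE0991-a, AVE0991-b and AVE0991-c. No model library reached 90 and no AVE0991 library was below 300. The difference on the log2 scale was 3.33 ± 0.47 (SE), or 10.1-fold, with an adjusted p of 0.00346, from 0.00168 to 0.0251 with any library left out (edgeR). The AVE0991 libraries were themselves spread over more than 2-fold. The authors' test, which takes the spread of this name alone, gives a statistic of 3.34 on 2.05 degrees of freedom (unadjusted p = 0.0765) in their deposited table.

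A830036E02Rik overlaps Krt12, a keratin gene of the cornea. Its mean normalized count rose to 4111 ± 501 with AVE0991, against 1437 ± 495 in the model group (SD, n = 3 per group). By library these were 1306, 1020.2 and 1984 in the model libraries and 3590.0, 4151 and 4590.0 with AVE0991, and the highest model library was model-c. The log2 fold change was 1.57 ± 0.25 (SE), with an adjusted p of 0.00516 and at most 0.0345 with any library left out (edgeR). In the authors' deposited table the statistic was 6.57 on 3.999 degrees of freedom (unadjusted p = 0.00277). E130008D07Rik lies between Tnfrsf21, a death receptor gene of neurons, and Adgrf1, an adhesion receptor gene. It had 349.5, 284 and 419 in the model libraries and 909, 1006 and 735 with AVE0991. On the log2 scale this came to 1.38 ± 0.20 (SE), with an adjusted p of 0.00391 and at most 0.0251 with any library left out (edgeR). B230216N24Rik overlaps Pam, the enzyme that amidates neuropeptides. Of the members that rose it had the least spread within groups, with 629, 577 and 592 in the model libraries and 1123, 1078 and 971 with AVE0991. On the log2 scale the change was 0.87 ± 0.14 (SE), with an adjusted p of 0.00693 and at most 0.0443 with any library left out (edgeR). The authors' deposited statistic for it was 9.61 on 2.45 degrees of freedom (unadjusted p = 0.00526).

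**Figure D3:**
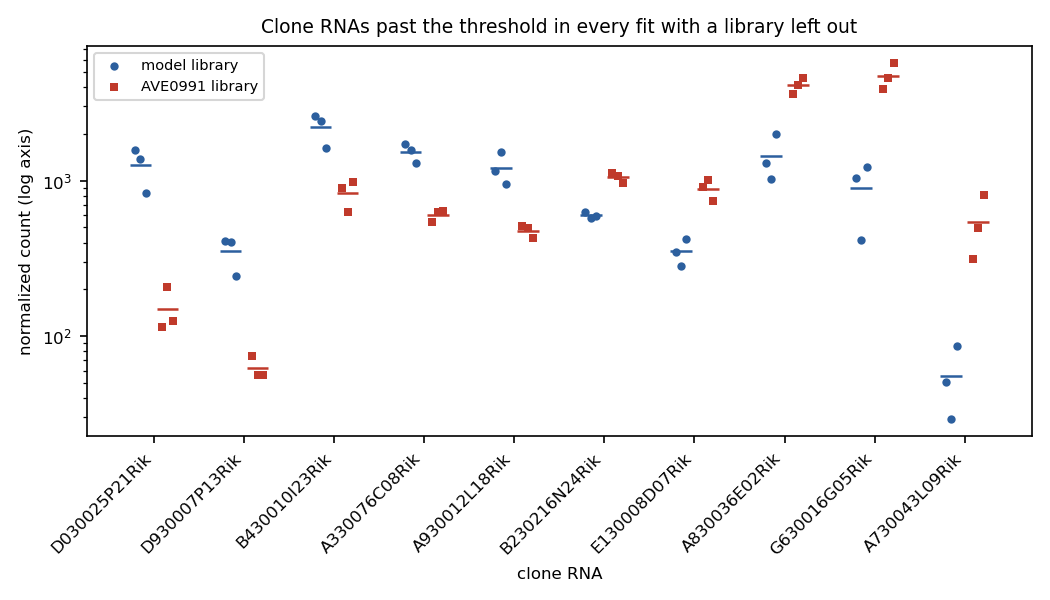
Normalized counts (log axis) of the 10 clone RNAs that stayed past the threshold whichever of the 6 libraries was left out, with 1 point per library and a bar at the group mean. The libraries of the groups do not overlap for any of them, and the gaps are widest for D030025P21Rik and D930007P13Rik, lower with AVE0991, and for A730043L09Rik and G630016G05Rik, higher.

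Of 3 members beside LIM-only genes, whose products bridge transcription factors, 2 rose and 1 did not pass, beside 7.78% of all names that were higher. A830019L24Rik lies beside Lmo4 and had 156, 223 and 341 in the model libraries and 828, 643 and 489 with AVE0991. On the log2 scale this came to 1.49 ± 0.30 (SE), and its adjusted p of 0.0143 was lost without AVE0991-a or model-b (edgeR, 0.0591 to 0.0629). A830011K09Rik overlaps Lmo3 and had 134, 87.7 and 231 in the model libraries and 361, 419 and 354 with AVE0991. Library model-c was again the highest of its group. In log2 terms this was 1.38 ± 0.33 (SE), and its adjusted p of 0.0252 was lost without AVE0991-a, AVE0991-b, AVE0991-c, model-a or model-b (edgeR, 0.0629 to 0.101). The other member that overlaps Lmo3, B230110G15Rik, had 112, 34.0 and 259 in the model libraries and 419, 257 and 371 with AVE0991. It did not pass, at 1.42 ± 0.58 (SE) on the log2 scale with an adjusted p of 0.132 (edgeR). The authors' deposited table gives A830019L24Rik and A830011K09Rik statistics of 3.69 on 3.11 and 4.83 on 2.91 degrees of freedom. The loci were picked with results of these data known.

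D030025E07Rik had the largest fitted rise of all members, at few counts. In the model group it had 6 recovered counts in model-b and none in model-a and model-c, and with AVE0991 it had 18.1, 41.8 and 51.0 normalized counts. The fitted log2 fold change of 4.35 ± 1.12 (SE) rests on those 6 counts and has no firm size. Its adjusted p was 0.0332, lost without AVE0991-a, AVE0991-b, AVE0991-c, model-a or model-c (edgeR, 0.0564 to 0.115). By the authors' test its statistic was 3.54 on 2.13 degrees of freedom (unadjusted p = 0.0651).

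Further members rose by 2-fold or more. E030013I19Rik, which overlaps the integrin gene Itga8, had 80.6, 59.1 and 120.1 in the model libraries and 247, 189 and 212 with AVE0991. Here the log2 fold change was 1.37 ± 0.29 (SE), and its adjusted p of 0.0170 was lost without AVE0991-a, AVE0991-c, model-a or model-b (edgeR, 0.0549 to 0.0747). A630023P12Rik, between Fbrsl1 and the glycosyltransferase gene Galnt9, had 95.9, 39.4 and 128 in the model libraries and 224, 252 and 181 with AVE0991, with model-b the lowest. Here a log2 change of 1.36 ± 0.39 (SE) had an adjusted p of 0.0457, lost without AVE0991-a, AVE0991-b, AVE0991-c, model-a or model-b (edgeR, 0.0677 to 0.127) and with the authors' library factors (0.0528). A730081D07Rik overlaps Gcnt2, which branches glycan chains, and Pak1ip1. It had 67.0, 33.1 and 80.4 in the model libraries and 132, 133 and 141 with AVE0991. The AVE0991 libraries were close together and model-b was the lowest. As a log2 fold change this was 1.22 ± 0.34 (SE), and its adjusted p of 0.0430 was lost without AVE0991-a, AVE0991-b, AVE0991-c, model-a or model-b (edgeR, 0.0937 to 0.115). G630064G18Rik lies beside Dlc1, a tumour suppressor gene. It had 56.0, 50.1 and 52.7 in the model libraries and 102, 135 and 81.4 with AVE0991. By edgeR the log2 fold change was 1.05 ± 0.29 (SE), and its adjusted p of 0.0401 was lost without AVE0991-a, AVE0991-b, AVE0991-c, model-a or model-b (edgeR, 0.0523 to 0.142) and with the authors' library factors (0.0504). The statistics in the authors' deposited table were, for E030013I19Rik, A630023P12Rik, A730081D07Rik and G630064G18Rik in turn, 5.25 on 3.99, 3.96 on 3.80, 5.22 on 2.18 and 3.40 on 2.05 degrees of freedom. By the authors' test the unadjusted p was 0.00635, 0.0185, 0.029 and 0.0742 in the same order.

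Smaller rises, of under 2-fold, were seen in 6 more members, among them the second highest by count. B230303A05Rik had 7121, 5598 and 9111 in the model libraries and 13986, 11029 and 12726 with AVE0991, and its log2 fold change was 0.84 ± 0.19 (SE). Without strand information, reads at this pseudogene cannot be assigned apart from those of Inhba. Its adjusted p of 0.0200 was lost without AVE0991-a, AVE0991-c, model-a or model-b (edgeR, 0.0616 to 0.0822). C130026L21Rik, beside the transcription cofactor gene Mn1, had 381, 450.2 and 778 in the model libraries and 1074, 1026 and 834 with AVE0991. Its library model-c lay close to the lowest AVE0991 library. The log2 fold change of 0.92 ± 0.27 (SE) had an adjusted p of 0.0475, lost without AVE0991-a, AVE0991-b, AVE0991-c, model-a or model-b (edgeR, 0.0979 to 0.172), with the authors' library factors (0.0620) and with a filter at a mean of 10 normalized counts (0.0510). F730035M05Rik lies between Pygl, a glycogen phosphorylase gene, and Trim9, a ubiquitin ligase of neurons. It had 189, 144 and 229 in the model libraries and 271, 356 and 374 with AVE0991. Between the groups the log2 fold change was 0.89 ± 0.24 (SE), and its adjusted p of 0.0394 was lost without AVE0991-a, AVE0991-b, AVE0991-c, model-a or model-b (edgeR, 0.0534 to 0.131). For B230303A05Rik, C130026L21Rik and F730035M05Rik the authors' deposited statistics were 3.99 on 3.89, 3.09 on 3.27 and 3.65 on 3.77 degrees of freedom.

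The last 3 of these rose the least, with groups that did not overlap. D330050G23Rik, beside the Ras pathway inhibitor Spred1, had 221, 265 and 282 in the model libraries and 349, 389 and 405 with AVE0991, and its log2 fold change was 0.63 ± 0.18 (SE). C630031E19Rik overlaps Myt1l, a transcription factor that keeps neurons neuronal. It had 1751, 1507 and 1627 in the model libraries and 2147, 2167 and 2488 with AVE0991, and its log2 fold change was 0.53 ± 0.14 (SE). A230107N01Rik, beside Tmem161b, had 1089, 1091 and 1338 in the model libraries and 1573, 1618 and 1589 with AVE0991, and its log2 fold change was 0.49 ± 0.14 (SE). The 3 adjusted p-values of 0.0468, 0.0394 and 0.0457 were each lost on leaving out any AVE0991 library, model-a or model-b, with values from 0.0643 to 0.193 (edgeR). D330050G23Rik and A230107N01Rik were also lost with the authors' library factors (0.0632 and 0.0662) and with no filter on low counts (0.0582 and 0.0540, edgeR). The authors' deposited table gives 5.08 on 3.98, 4.88 on 3.40 and 5.03 on 2.10 degrees of freedom for these 3.

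**Figure D4:**
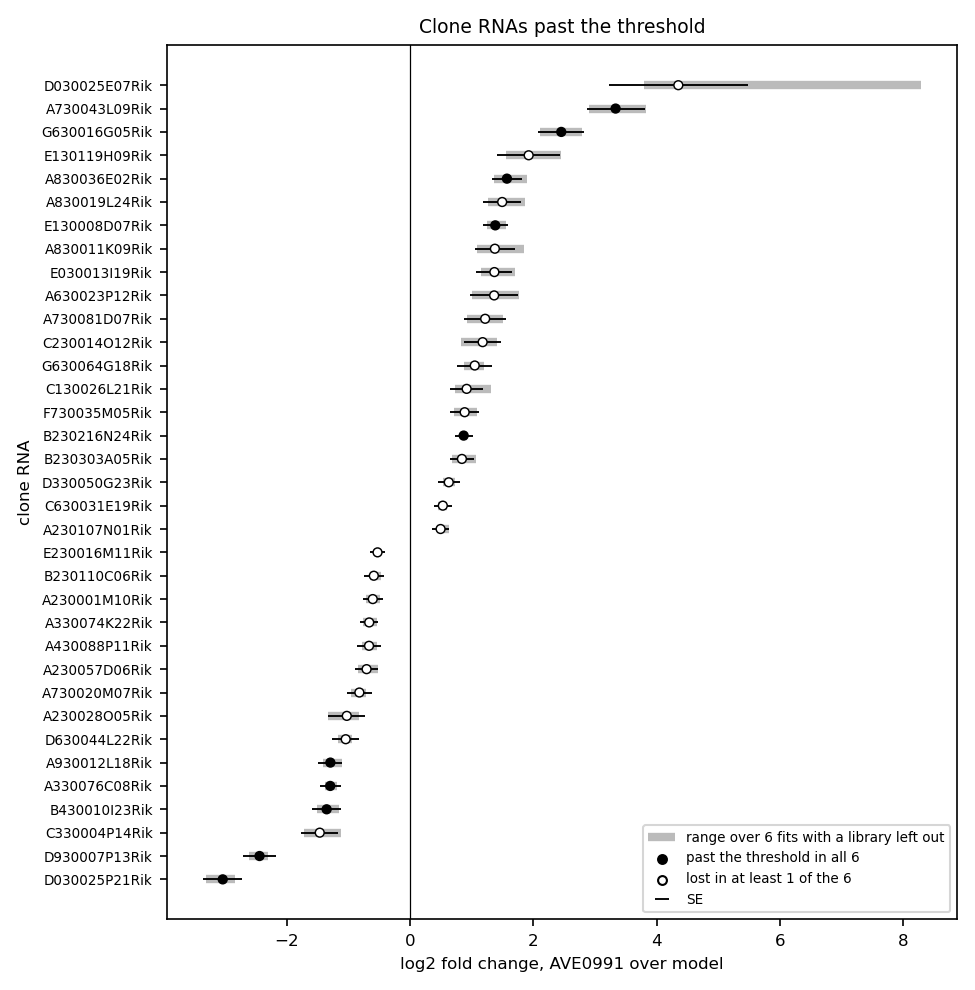
Log2 fold change (AVE0991 over model) of the 35 clone RNAs past the threshold, with SE bars and, in grey, the range over the 6 fits that each leave out 1 library. Filled points mark the 10 that stayed past the threshold in all 6, and no grey range crosses 0.

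Of the members that fell, D030025P21Rik had the largest change. Its RefSeq gene overlaps Ltbp2, a protein of elastic fibres related to the carriers of latent TGF-beta. It had 1586, 1385 and 836 in model-a, model-b and model-c and 115, 206 and 126 in AVE0991-a, AVE0991-b and AVE0991-c. The lowest model library, model-c, was still above 4 times the highest AVE0991 library. In log2 fold change this was -3.04 ± 0.32 (SE), with an adjusted p of 0.000811 and at most 0.0115 with any library left out (edgeR). The authors' deposited table gives a statistic of -4.96 on 2.07 degrees of freedom (unadjusted p = 0.0359).

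A further 3 fell by more than 2-fold and kept their call with any library left out. B430010I23Rik overlaps Mtus1, a microtubule-associated tumour suppressor, and had 2621, 2415 and 1617 in the model libraries and 891, 632 and 985 with AVE0991. On the log2 scale the change was -1.35 ± 0.24 (SE), with an adjusted p of 0.00819 (edgeR). A330076C08Rik lies between Cd83, a gene of activated immune cells, and Jarid2, a partner of Polycomb repressive complex. It had 1726, 1583 and 1298 in the model libraries and 546, 624 and 639 with AVE0991. The libraries within each group were close together, and the log2 fold change was -1.30 ± 0.17 (SE), with an adjusted p of 0.00220 (edgeR). A930012L18Rik overlaps Mcc, a gene named for its loss in colorectal tumours, and had 1156, 1518 and 956 in the model libraries and 510.0, 494 and 426 with AVE0991. On the log2 scale this came to -1.29 ± 0.20 (SE), with an adjusted p of 0.00478 (edgeR). With a library left out the highest adjusted p of these 3 was 0.0403, 0.0154 and 0.0288 (edgeR). The authors' statistics in their deposited table were -4.27 on 2.47, -7.23 on 2.21 and -4.41 on 2.10 degrees of freedom.

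Other falls of 2-fold or more were less even. C330004P14Rik, which lies between Nmbr, the neuromedin B receptor gene, and Cited2, had 1001, 730.3 and 411 in the model libraries and 258, 269 and 223 with AVE0991. The model libraries were spread over more than 2-fold, with model-c the lowest. Here a log2 change of -1.47 ± 0.30 (SE) had an adjusted p of 0.0151, lost without AVE0991-a, AVE0991-c, model-a or model-b (edgeR, 0.0518 to 0.0650). D630044L22Rik overlaps Capn15, a gene of the calpain family, and had 428, 424 and 296 in the model libraries and 162, 178 and 197 with AVE0991. This log2 fold change of -1.04 ± 0.21 (SE) had an adjusted p of 0.0150, lost without AVE0991-a, AVE0991-b, model-a or model-b (edgeR, 0.0554 to 0.0669). A230028O05Rik, between Lpp and Tprg, had 977, 869 and 534 in the model libraries and 327, 285 and 511 with AVE0991. The highest AVE0991 library and model-c nearly met. Here a log2 change of -1.03 ± 0.30 (SE) had an adjusted p of 0.0498, lost without AVE0991-a, AVE0991-b, model-a or model-b (edgeR, 0.149 to 0.176) and also with DESeq2 size factors, library totals or a filter at a mean of 10 normalized counts (0.0524 to 0.0566, edgeR), but not with the authors' library factors (0.0378). The authors' deposited statistics of C330004P14Rik, D630044L22Rik and A230028O05Rik were -2.71 on 2.03, -4.57 on 2.21 and -2.79 on 3.02 degrees of freedom. By the authors' test the unadjusted p was 0.112, 0.0371 and 0.0682 in the same order.

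Falls of under 2-fold were found in 7 members. E230016M11Rik overlaps Gadd45a, a gene induced by DNA damage, and of the 35 changed members it had the least spread within groups. It had 3242, 3403 and 3205 in the model libraries and 2167, 2302 and 2119.7 with AVE0991. Fitted over all names, the log2 fold change was -0.53 ± 0.12 (SE), and the authors' deposited statistic of -13.28 on 3.95 degrees of freedom (unadjusted p = 0.0002) has the smallest p of all members. The edgeR adjusted p of 0.0226 was lost without AVE0991-a, AVE0991-b, AVE0991-c, model-a or model-b (edgeR, 0.0667 to 0.0975). A330074K22Rik, beside Gse1, had 2907, 3427 and 3877 in the model libraries and 2111, 2171 and 1938 with AVE0991. Here model-c was the highest of its group. Its log2 fold change of -0.66 ± 0.15 (SE) had an adjusted p of 0.0188, lost without AVE0991-a, AVE0991-b, AVE0991-c or model-b (edgeR, 0.0668 to 0.0768). A230001M10Rik lies beside Vangl1, a planar cell polarity gene. It had 3250.1, 4562 and 3944 in the model libraries and 2787, 2505 and 2165 with AVE0991, and its log2 fold change was -0.61 ± 0.16 (SE). Its adjusted p of 0.0366 was lost without AVE0991-a, AVE0991-b, AVE0991-c or model-b (edgeR, 0.0705 to 0.138). The authors' deposited statistics of A330074K22Rik and A230001M10Rik were -4.61 on 2.25 and -3.42 on 2.86 degrees of freedom.

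B230110C06Rik, which overlaps Lrrc3b, had 1469, 1365 and 1154 in the model libraries and 926, 754 and 878 with AVE0991. This log2 fold change of -0.59 ± 0.16 (SE) had an adjusted p of 0.0404, lost without AVE0991-a, AVE0991-b, AVE0991-c, model-a or model-b (edgeR, 0.0845 to 0.152). A730020M07Rik, beside the choline transporter-like gene Slc44a3, had 451, 452 and 304 in the model libraries and 234, 228 and 198 with AVE0991. Its log2 fold change of -0.82 ± 0.21 (SE) had an adjusted p of 0.0307, lost without AVE0991-a, AVE0991-b, AVE0991-c, model-a or model-b (edgeR, 0.0866 to 0.115). A430088P11Rik overlaps Fam83f and lies beside Tnrc6b, a partner of Argonaute in miRNA silencing. It had 309, 306 and 319 in the model libraries and 187, 164 and 215 with AVE0991, and its model libraries differed by little. The log2 fold change of -0.67 ± 0.19 (SE) had an adjusted p of 0.0457, lost with each of the 6 libraries left out in turn (0.0593 to 0.160, edgeR) and in 3 of 8 other alternatives (0.0512 to 0.0623). In the authors' deposited table these 3 have statistics of -4.50 on 3.13, -3.62 on 2.21 and -8.06 on 2.28 degrees of freedom. By the authors' test the unadjusted p was 0.0187, 0.0591 and 0.0101 in the same order.

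In RefSeq 5 members hold miRNA genes, of which 1 fell and 4 did not pass, beside 8.32% of all names that were lower. A230057D06Rik holds 7 genes of the Mir344 family and lies beside Ndn, an imprinted gene of the Prader-Willi region. It had 3863, 3229 and 2403 in model-a, model-b and model-c and 1786, 1861 and 1967 in AVE0991-a, AVE0991-b and AVE0991-c. The groups did not overlap, and model-c was the lowest of the model libraries. The difference on the log2 scale was -0.71 ± 0.19 (SE). Its adjusted p of 0.0372 was lost without AVE0991-a, AVE0991-b, AVE0991-c, model-a or model-b (edgeR, 0.0817 to 0.137). The authors' deposited statistic was -3.04 on 2.06 degrees of freedom (unadjusted p = 0.0901). F630028O10Rik holds Mir223, the gene of the myeloid miRNA that the series title names. It had 76.4, 119.9 and 122 in model-a, model-b and model-c and 58.5, 84.7 and 254 in AVE0991-a, AVE0991-b and AVE0991-c. AVE0991-c stood far above the other 5 libraries, and the groups overlapped. The log2 fold change was 0.39 ± 0.52 (SE), with an adjusted p of 0.657 (edgeR). Without AVE0991-c it was -0.52 (adjusted p = 0.388, edgeR). The statistic in the authors' deposited table was 0.42 on 2.23 degrees of freedom (unadjusted p = 0.713). E130102H24Rik holds Mir101a and had 28.0, 25.1 and 34.2 in the model libraries and 8.06, 43.9 and 41.3 with AVE0991, and its log2 fold change was 0.15 ± 0.63 (SE). A330023F24Rik and C130071C03Rik are described above. These counts are of the longer RNAs and do not measure mature miRNAs.

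Across the initial letters the calls fell as follows. Of 76 tested members with A, 7 rose and 8 fell, and of 23 with B, 2 rose and 2 fell. Of 29 with C, 3 rose and 1 fell, and of 25 with D, 2 rose and 3 fell. Of 20 with E, 3 rose and 1 fell. The 7 with F and the 5 with G had 1 and 2 risers and none that fell. By clone series, that is by the letter and the digits after it, the 9 members of A830 had 3 risers, none that fell and a median log2 fold change of 1.38, and 8 of the 9 were above 0, where 7.78% of all names were higher and 907 of 1863 were above 0. A830 was picked after its values were seen, among 16 series with at least 5 members. All 9 values, for A830036E02Rik, A830019L24Rik and A830011K09Rik described above and for A830009L08Rik, A830029E22Rik, A830082K12Rik, A830082N09Rik, A830035O19Rik and A830019P07Rik, ran from -0.05 to 1.85. Of 13 tested members in A330 and 13 in A930, none rose, and 2 and 1 fell. A230 had 1 riser and 3 that fell among 10.

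Members whose RefSeq gene overlaps a protein-coding gene, on either strand, changed in 16 of 81 tested, with 9 higher and 7 lower. Those that overlap none changed in 19 of 103, with 11 higher and 8 lower. Both lie near the 16.1% of all names that changed. The median log2 fold changes were 0.02 and 0.15. The authors' counting is not stated to use strand, so reads from an overlapping gene and from the clone RNA cannot be told apart. None of the 3 protein-coding members passed. Of these, A430057M04Rik had 33.1, 17.0 and 126 in the model libraries and 13.1, 12.2 and 0 with AVE0991. In log2 terms this was -2.73 ± 1.04 (SE), with an adjusted p of 0.111 (edgeR). The log2 fold change of B630019A10Rik, with no RefSeq symbol, was -0.28 ± 0.31 (SE).

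The 3 members just outside the threshold had groups that did not overlap. A830009L08Rik, beside the autophagy gene Atg10, had 37.3, 48.3 and 186 in the model libraries and 393, 286 and 265 with AVE0991. Library model-c was far above the other model libraries. In log2 fold change this was 1.85 ± 0.55 (SE), with an adjusted p of 0.0512, and 2.95 with an adjusted p of 0.000449 without model-c (edgeR). With any other library left out the adjusted p was 0.106 to 0.162 (edgeR). D330041H03Rik overlaps Abca3, a lipid transporter gene, and had 720.3, 577 and 616 in the model libraries and 427, 457 and 392.0 with AVE0991. Its log2 fold change of -0.53 ± 0.17 (SE) had an adjusted p of 0.0648 (edgeR). A930003O13Rik overlaps Lhfpl3 and had 821, 977 and 1191 in the model libraries and 1336, 1385 and 1443 with AVE0991. This log2 fold change of 0.53 ± 0.17 (SE) had an adjusted p of 0.0650, of 0.0155 without model-c, and of 0.120 to 0.219 without any other library (edgeR). The authors' deposited statistics of these 3 were 3.61 on 3.87, -4.56 on 2.75 and 3.51 on 2.33 degrees of freedom.

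Library model-c moved with these results. It was the model library nearest to the AVE0991 mean in 28 of the 35 changed members (80%) and in 97 of the 185 tested (52.4%). Over the 20 that rose, the median log2 level relative to each member's mean was -0.86, -1.06 and -0.34 in model-a, model-b and model-c and 0.43, 0.44 and 0.39 in the lettered AVE0991 libraries. Over the 15 that fell it was 0.61, 0.57 and 0.18 in the model libraries and -0.72, -0.66 and -0.56 with AVE0991. Without model-c, 46 members changed, 31 higher and 15 lower, and 33 of these were among the 35. Leaving out AVE0991-a, AVE0991-b or AVE0991-c left 11, 15 and 13 changed, and leaving out model-a or model-b left 13 and 11. The 10 that changed in all of these fits were G630016G05Rik, A730043L09Rik, A830036E02Rik, E130008D07Rik and B230216N24Rik, which rose, and D030025P21Rik, D930007P13Rik, B430010I23Rik, A330076C08Rik and A930012L18Rik, which fell. What sets model-c apart was not tested.

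**Figure D5:**
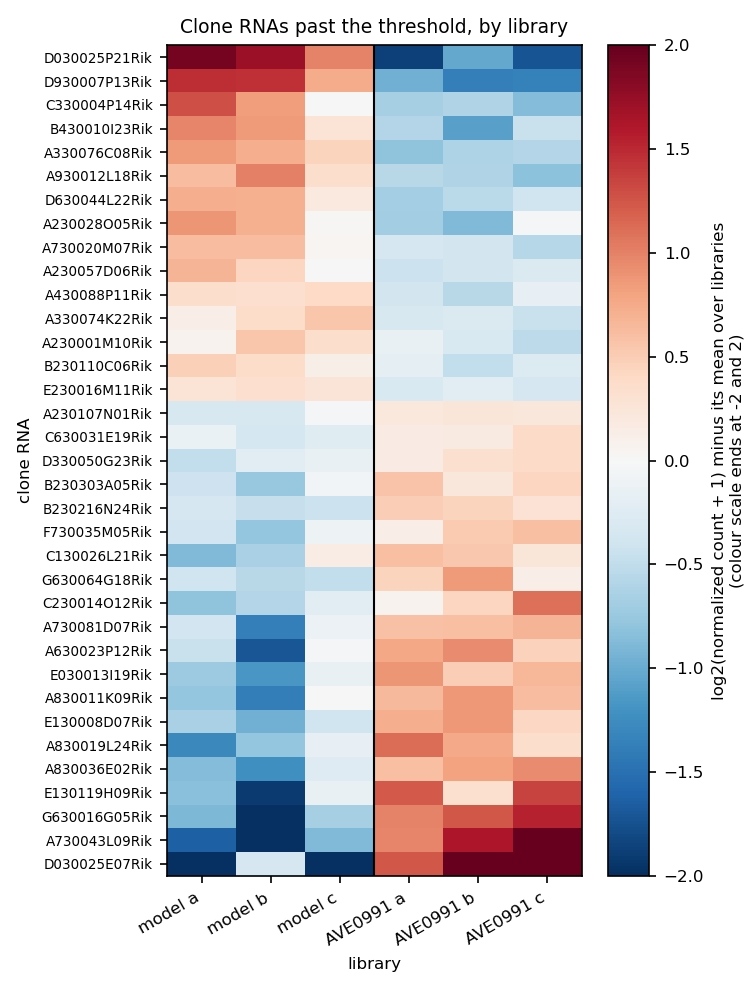
Log2(normalized count + 1) of the 35 clone RNAs past the threshold in each library, minus the member's mean over the 6 libraries (red above, blue below; colours end at -2 and 2). The columns model-a and model-b are the most distant from AVE0991, and model-c is paler than they are in most members that fell and in most that rose.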

How the data were processed

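The labels' protocols name TRIzol for RNA extraction, FastQC 0.11.8 for read quality and fastp 0.19.5 for trimming. The submitters' processing notes list mm9 as the build, with STAR 2.7.7a and DESeq2 1.10.1. Counter, annotation and strand setting: not given in the sources used here. A deposited table of counts by identifier, in whole numbers, served for depth only. The table by gene name holds, per the file headers, the authors' group means (signal), a fold change (ratio) and its log2, each with 1 added to the means, and a test score (statistic and degrees of freedom) with its p-value.

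Each group mean in the named table is a mean of 3 counts divided by library factors (0.921 to 1.18, found from names with counts in 1 library). Whole counts were solved to relative tolerances of 1e-09 on the mean and 1e-06 on the statistic and degrees of freedom. Of 2247 names with a value, 2235 (99.47%) had exactly 1 solution. Names with several solutions or very high counts were left out, none of them a member. The sets solved on simulated data (2220) all equalled the simulated counts. The main test was edgeR 4.0.16 (quasi-likelihood, TMM, filterByExpr, R 4.3.3), with Benjamini-Hochberg adjustment over the 1863 names tested. SE was taken as log2 fold change over the root of F. In simulated data for this comparison (1821 tested), 60.4% of 96 RNAs changed 2-fold and 89.4% of 94 changed by 2 on the log2 scale were called, and 2.07% of calls were unchanged RNAs. No simulated library was set apart from its group as model-c was, so these shares may differ in the measured data. Alternatives were other scalings and filters, DESeq2 1.42.0, limma-voom (limma 3.58.1), a robust fit, each library left out and the authors' p.

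Named members were the 12 largest changes per direction past the threshold without overlap, the 6 with the most counts, the 3 nearest outside the threshold, those holding miRNA genes, C130071C03Rik, A330023F24Rik and C430049B03Rik (no row of that name was found), and those whose call was lost with a library left out. Others were chosen after their values were seen. The members and lists were chosen with earlier results of these data known. RefSeq (GRCm38.p6) gave classes and neighbours. Some neighbours are not reported here, and the homeobox group leaves out a member for that reason. Its build differs from mm9, so coordinates are not printed. No sequences were used.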

Additional observations from a re-analysis of the deposited data

How the results depend on the processing

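Of 185 members tested, 35 changed. Other scalings, filters and tests with all 6 libraries (8 fits) gave 31 to 43, and 28 of the 35 stayed past the threshold in all 8. DESeq2 called 43, limma-voom 41, and a robust edgeR fit 36, each including all 35. With a 2-fold minimum added, 21 passed. With 1 library left out the count ran from 11 to 46, on fewer samples, and 10 of the 35 stayed past the threshold in all 6 such fits. No member among the 35 changed sign in any of these fits. The authors' p, adjusted here over all names, gave 0 members (smallest adjusted value 0.132, and 0.0811 over all names), where their unadjusted p was under 0.05 for 39 members and that of edgeR for 62. That test draws no spread from other names. No paired analysis was possible because the recovered libraries carry no replicate number. The 17 members that failed the filter had means of at most 9.82 normalized counts. Of these, D830005E20Rik alone passed in any fit, with DESeq2 (adjusted p = 0.0471), and it had 0.114 by edgeR with no filter.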

Other observations

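The 17 members that were not tested held few or no counts in the substantia nigra. Some had counts in 1 group only. D830005E20Rik had 4, 8 and 8 recovered counts in AVE0991-a, AVE0991-b and AVE0991-c and none in the model group, and D230030E09Rik had 4 and 10 in AVE0991-b and AVE0991-c and none elsewhere. E330023G01Rik and D830032E09Rik had counts in model-b alone, 16 and 8. A930006I01Rik had 30 and 28 in model-b and model-c, 6 in AVE0991-a and none in the other libraries. A530006G24Rik, between Pax1 and Foxa2, a gene of floor plate and midbrain dopaminergic neurons, had 10, 4 and 4 with AVE0991 and 11, 4 and 0 in the model group.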
